A study of Mus musculus with 12 samples.

Results

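Liver was set against cortex on the arrays made by repeated amplification of a very small amount of RNA. The comparison holds 6 of the 12 arrays of the series, chosen by their labels and not by any measured value: 3 liver arrays and 3 cortex arrays, each begun from 1 ng of total RNA and amplified linearly 3 times, called 3X here. The same RNA was also run from 5 µg with a standard protocol of 1 linear amplification (1X), with 1 array per tissue, and cerebellum had the same 3X and 1X arrays. Every array came from 1 adult mouse of the NMR-1 strain, with no treatment or genotype in the labels, so the 3 arrays of a tissue are technical replicates and p-values measure only the spread between them. The platform was MG_U74Av2, a mouse oligonucleotide array that measures a transcript by a set of short probes (a probe set). All 12422 probe sets other than manufacturer's controls were tested. Signals and differences are on the log2 scale, where 1 is 2-fold, and a difference is liver minus cortex with the standard error (SE) of the limma fit.

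Hepatocytes, the main cells of the liver, make most plasma proteins, assemble lipoproteins, form bile acids and urea, and break down amino acids and foreign compounds. The cortex is built of neurons, which signal through synapses by vesicle release and receptors, with astrocytes that clear transmitter and oligodendrocytes that wrap axons in myelin. In bulk RNA, fewer cells of a type and less RNA per cell cannot be told apart.

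The labels call the brain tissue only cortex, and its defining markers were therefore read first. Of the 8 neuronal markers, Syn1 and Slc17a7 have no probe set with a single gene symbol. Stmn2, a growth-cone protein, read 6.62, 6.28 and 6.37 in liver and 8.27, 7.64 and 7.91 in cortex, and Gad1, which makes the transmitter GABA, read 3.81, 3.66 and 3.76 in liver and 5.59, 5.04 and 5.04 in cortex. Both were lower in liver without overlap of the arrays, as was the vesicle calcium sensor Syt1 (-0.71 ± 0.17, adjusted p = 0.0248). Snap25 (-1.39 ± 0.40, adjusted p = 0.0600), Camk2a (-1.02 ± 0.30, adjusted p = 0.0623) and Nefl (0.01 ± 0.09, adjusted p = 0.943) were not called. In liver 7 of the 8 hepatocyte markers were called higher. The exception was transthyretin (Ttr), the thyroid hormone carrier that hepatocytes and choroid plexus both secrete, at 10.59, 10.76 and 12.02 in liver and 11.001, 10.94 and 11.07 in cortex (0.12 ± 0.33, adjusted p = 0.881). None of the 13 measured kidney tubule genes was higher in liver, and only Calb1, which neurons also make, was lower.

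A total of 1675 probe sets, or 13.5% of those tested, differed between liver and cortex at an adjusted p under 0.05. Of these, 625 (5.03%) were higher and 1050 (8.45%) were lower in liver. The liver and cortex arrays did not overlap in any of the 1675, which is again 13.5%, whereas 3784 of all probe sets (30.5%) did not overlap. A difference of at least 1 was reached by 652 (5.25%), with 284 higher and 368 lower in liver. The median difference was 0.90 among the higher and -0.79 among the lower calls. Signals at or below 3.45, the median of all values of the 6 arrays, are called dim here, because this method gives no detection call, and ratios are given only where both tissue means lie above it. The level is a median and not a measured background, so a signal above it is not thereby shown to exceed background, and the ratios are ratios of signals. Both means lay above it in 809 calls, liver alone was dim in 239, cortex alone in 187, and both were dim in 440. Without cortex replicate 1 the calls were 1071, and without cortex replicate 3 they were 1082.

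**Figure D1:**
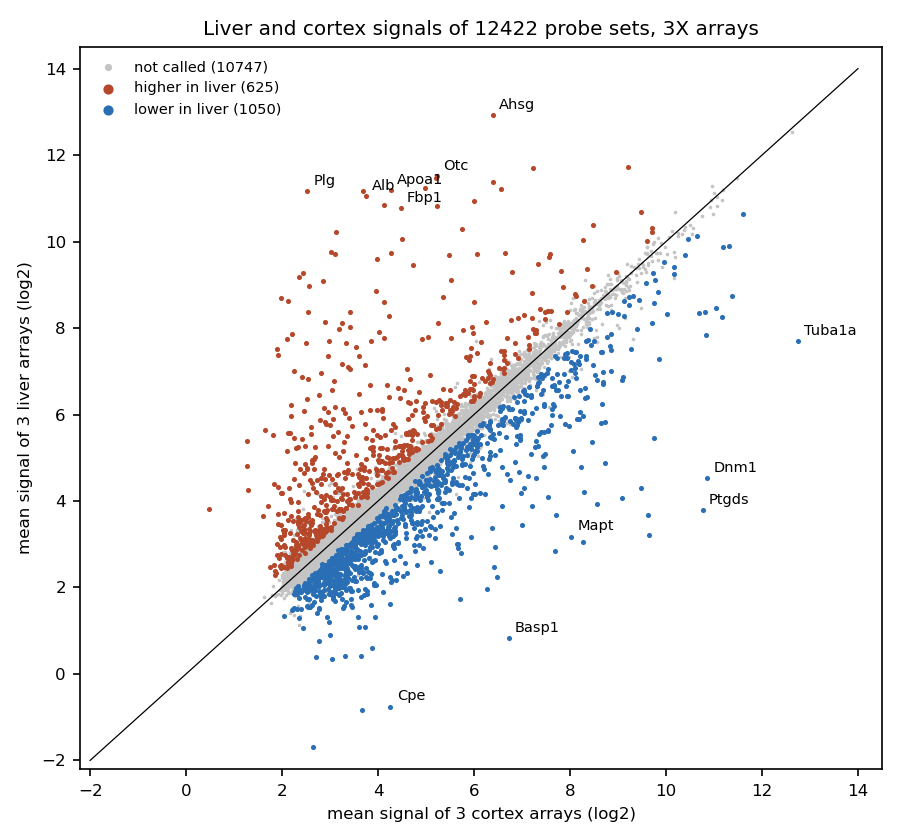
Mean signal of the 3 liver arrays (vertical axis, log2) against mean signal of the 3 cortex arrays (horizontal axis, log2) for all 12422 probe sets, with the diagonal marking equal signals. The 625 probe sets called higher in liver lie above the diagonal up to Ahsg, and the 1050 called lower lie below it, with Ptgds and Dnm1 far to the right.

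The replicates were not equally alike. The median SD across probe sets was 0.135 in liver and 0.107 in cortex. Liver replicate 3 had the highest liver signal in 228 of the 284 strongly higher probe sets, against 45 for replicate 1 and 11 for replicate 2, while over all probe sets replicate 3 was highest least often (3417 of 12422). The median signal of the 284 was 5.65, 5.52 and 6.38 in liver replicates 1, 2 and 3. Leaving out liver replicate 3 gave 2155 calls, of which 1551 were among the 1675, and leaving out liver replicate 2 gave 1342, of which 1269 were. The part of amplification and hybridization in this spread was not tested.

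The 15 largest differences in favour of liver were genes of plasma proteins, lipid transport and hepatic metabolism. Plasminogen (Plg), from which plasmin is cut to dissolve fibrin clots, read 10.95, 10.57 and 11.96 in liver and 2.27, 2.57 and 2.73 in cortex, a difference of 8.64 ± 0.32 (adjusted p = 1.52e-06). Its cortex signals were dim on all 3 arrays. Fabp1, which carries fatty acids within hepatocytes, read 10.74, 10.80 and 11.97 in liver and 3.68, 3.70 and 3.69 in cortex (7.48 ± 0.30, adjusted p = 2.13e-06), a ratio of 178-fold. A second Fabp1 probe set was also called but differed by only 0.59 ± 0.13, and the mean of both gave 4.03. Albumin (Alb), the main plasma protein, read 11.04, 10.39 and 11.72 in liver and 3.86, 3.58 and 3.78 in cortex (7.31 ± 0.29, adjusted p = 2.13e-06), a ratio of 159-fold. Both kinds of array stood far apart in the signals listed for these genes, with liver replicate 3 the highest of the liver arrays. The antitrypsin gene Serpina1b, whose product inhibits elastase, read 10.37, 9.86 and 10.40 in liver and 3.19, 2.93 and 3.25 in cortex (7.09 ± 0.16, adjusted p = 1.31e-07). Its liver arrays lay closer together than those of albumin.

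The 250 bases before and 50 bases after the RefSeq gene start (build GRCm38.p6) of these genes show which liver motifs lie near their starts. Capitals mark matches on either strand to GTTAAT (the core of the HNF1 element), TTGCNNAA (C/EBP factors) or TATAAA (the TATA-binding protein), and no 2 matches overlap.
Fabp1 promoter, chr6:71199629-71199928, plus strand: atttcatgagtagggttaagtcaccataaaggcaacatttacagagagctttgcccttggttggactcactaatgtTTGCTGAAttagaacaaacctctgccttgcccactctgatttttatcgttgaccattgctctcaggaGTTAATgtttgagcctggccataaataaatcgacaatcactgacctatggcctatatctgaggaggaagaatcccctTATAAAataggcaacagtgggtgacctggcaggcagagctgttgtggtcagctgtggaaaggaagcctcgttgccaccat
Alb promoter, chr5:90460620-90460919, plus strand: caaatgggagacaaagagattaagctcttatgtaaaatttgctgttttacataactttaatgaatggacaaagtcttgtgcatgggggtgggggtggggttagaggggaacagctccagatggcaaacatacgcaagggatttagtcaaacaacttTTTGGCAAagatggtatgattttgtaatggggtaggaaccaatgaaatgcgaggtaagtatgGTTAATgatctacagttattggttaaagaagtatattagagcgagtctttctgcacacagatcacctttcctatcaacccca
Serpina1b promoter, chr12:103738140-103738439, minus strand: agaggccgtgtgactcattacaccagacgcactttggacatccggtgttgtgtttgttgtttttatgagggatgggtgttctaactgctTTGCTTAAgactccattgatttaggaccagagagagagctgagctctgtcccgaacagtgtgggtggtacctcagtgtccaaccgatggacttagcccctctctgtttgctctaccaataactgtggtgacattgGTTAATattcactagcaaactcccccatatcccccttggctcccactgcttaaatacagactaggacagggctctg
GTTAAT begins 107 bases before the start in Fabp1, 32 before it in Alb and 26 before it in Serpina1b. Each of the 3 windows also holds a C/EBP match, and that of Fabp1 has TATAAA 30 bases before the start. The genes called at least 1 higher in liver number 228, and 188 of them (82.5%) had a promoter in the table. Of those 188, 16.5% held GTTAAT, against 7.20% of all 27025 RefSeq promoters in the table. Of all 8251 measured genes only 79.7% had a promoter, under the 80% needed, so they were not used as the background, although their composition differed from that of the whole table. In the 6572 that had one, GTTAAT was in 4.88%, C/EBP matches in 9.22%, TATAAA in 10.4% and GGGGCGGGG in 20.7%. Against the whole table, C/EBP matches were in 18.1% against 10.8%, the FOXA core TGTTTAC in 5.85% against 3.55%, and the HNF4 core CAAAGTCCA in 2.13% against 0.477%. TATAAA was in 18.1% against 14.2%, GGGGCGGGG (SP factors) in 12.2% against 11.6%, TGACGTCA (CRE, bound by CREB) in 0.532% against 1.88%, and GGACAGCGC (part of the REST element) in none of the 188 against 0.433%. The median GC content was 52.7% in the 188 and in the whole table, and 60.0% in the 6572. The median CpG ratio, observed over expected from base composition, was 0.307 in the 188, 0.389 in the whole table and 0.722 in the 6572. These shares are descriptions of the listed promoters, and a match is not a bound site.

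Among the other genes of that group were lipoprotein and plasma proteins. Apoa1, the main protein of high-density lipoprotein, was at 11.34, 10.78 and 11.47 in liver and 4.17, 4.40 and 4.23 in cortex (6.93 ± 0.18), a ratio of 122-fold. Fetuin-A (Ahsg), a mineral-binding plasma protein, had the highest signals of the group, with 13.18, 12.61 and 13.01 in liver and 6.38, 6.503 and 6.28 in cortex (6.55 ± 0.15), 93.5-fold. Hemopexin (Hpx), which binds heme, differed by 6.84 ± 0.16, Serpina1c by 6.84 ± 0.145 and the protease inhibitor precursor Ambp by 5.84 ± 0.22. Enzymes made up the rest of the 15. Otc, of the urea cycle, read 11.52, 11.001 and 12.03 in liver and 5.25, 5.14 and 5.30 in cortex (6.29 ± 0.23), and Fbp1, of glucose synthesis, read 10.74, 10.37 and 11.20 in liver and 4.64, 4.33 and 4.45 in cortex (6.30 ± 0.20). Bhmt, which remethylates homocysteine, differed by 6.597 ± 0.22, the ketosteroid reductase Akr1c6 by 6.51 ± 0.33, the carboxylesterase Ces3a by 6.41 ± 0.14 and the cytochrome Cyp2d10 by 6.23 ± 0.14. The highest adjusted p among the 15 was 8.47e-06. All 30 genes of the 15 highest and 15 lowest differed in the same direction on the 1X arrays, and 13 of the 30 have probe sets with a suffix that marks probes shared with other transcripts or less specific ones.

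**Figure D2:**
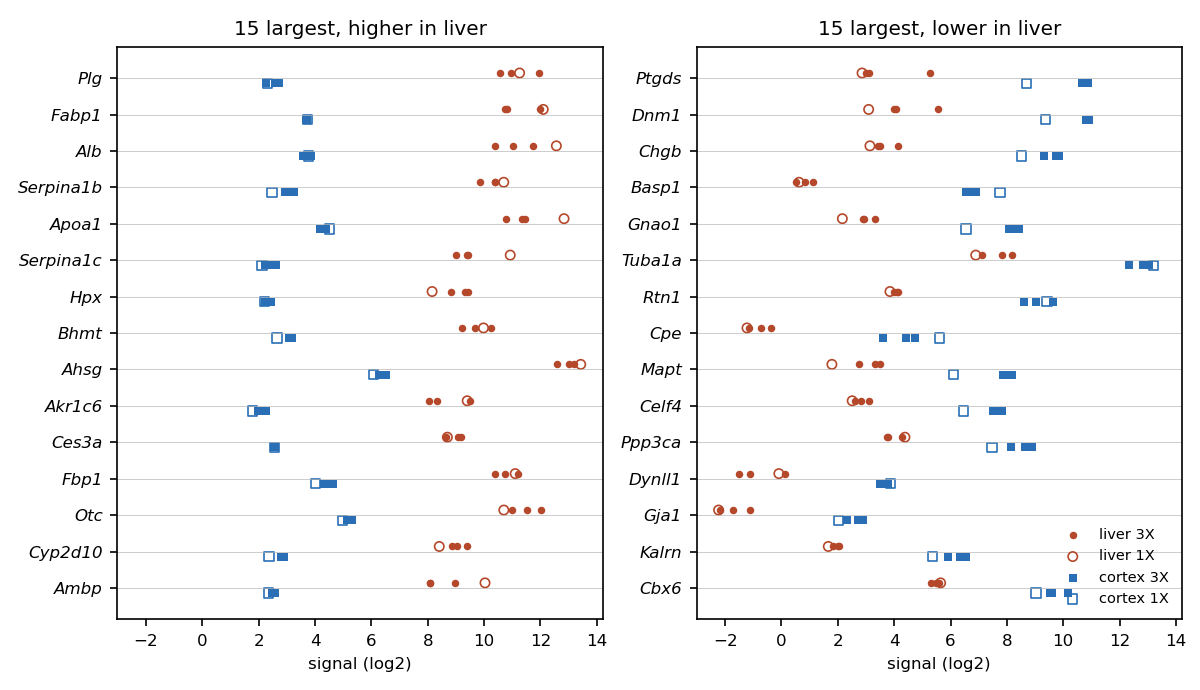
Signals of the 15 genes with the largest differences in each direction, with liver (circles) above cortex (squares) in each row and log2 signal on the horizontal axis. Filled marks are the 3 single 3X arrays per tissue and open marks the 1X array, and liver and cortex 3X arrays do not overlap in any row.

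The next 8 genes were those with the largest differences outside the 15 and both tissue means above the dim level. Apoa2, a further protein of high-density lipoprotein, read 9.63, 9.51 and 9.65 in liver and 3.96, 3.91 and 4.06 in cortex, 49.3-fold. Its difference was 5.63 ± 0.09 (adjusted p = 7.08e-08), and the 3 arrays of each tissue lay close together. A second Apoa2 probe set showed no such difference (-0.03 ± 0.12, adjusted p = 0.904), and the mean of both gave 2.80. Apob, the scaffold of very-low-density lipoprotein, was 44.5-fold higher in liver, with 9.58, 9.06 and 10.57 in liver and 4.24, 4.31 and 4.23 in cortex. The growth factor Igf1 read 10.83, 10.49 and 11.47 in liver and 6.0, 5.90 and 6.12 in cortex (4.92 ± 0.22), 30.4-fold. A second Igf1 probe set was not called at 3X (0.08 ± 0.15, adjusted p = 0.791), read 2.49 higher in liver at 1X, and brought the mean of both to 2.50 at 3X. Fibrinogen gamma (Fgg) was 26.4-fold higher and the antitrypsin Serpina1e differed by 5.58 ± 0.12. The protease inhibitor Pzp differed by 4.99 ± 0.31, the glutathione transferase Gsta3 by 4.89 ± 0.29 and Wfdc21 by 4.67 ± 0.33. Over the 8 genes the ratios ran between 25.4 and 49.3.

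Hepatocyte functions were described with 13 lists holding 331 genes, of which 245 were measured, with 1 probe set per gene. The probe set with the highest mean signal stood for a gene. Of the 245 genes, 150 were called higher and 0 lower, beside 5.43% higher and 8.94% lower among all 8251 genes. Their median difference was 0.85, against 0.00 for all genes. On the single 1X arrays it was 2.68, against -0.04 for all genes. The other 95 of the 245 were not called, and 51 of the 245 were dim in both tissues. The medians of the 13 lists lay between 0.24 and 3.09.

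Most genes of plasma carriers and of coagulation were called higher in liver, beside 5.43% of all genes. In the list of plasma carriers and secreted proteins, 24 of 29 measured genes were higher in liver (median 2.82), and in coagulation and fibrinolysis 15 of 18 were (median 1.49). Kininogen (Kng1), the source of bradykinin, read 8.43, 7.97 and 8.70 in liver and 3.41, 3.44 and 3.38 in cortex, and fibrinogen beta (Fgb) read 6.66, 6.67 and 8.20 in liver and 3.15, 3.41 and 3.20 in cortex. The ceruloplasmin gene (Cp), which carries copper in plasma, differed by 5.66 ± 0.20, and the retinol carrier Rbp4 by 4.47. In complement 5 of 12 were higher (median 0.54) and 7 were not called. Cfi, the protease that inactivates C3b, had widely spread liver arrays, at 5.73, 6.51 and 8.21, against 2.49, 2.73 and 2.42 in cortex. In lipid transport 12 of 18 genes were higher (median 1.47), with Apoc1 at 3.28 and Lpin1 at 0.05 ± 0.08 not called.

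Among the metabolic lists, urea cycle genes had the largest median (3.09, 4 of 6 higher), beside 5.43% higher among all genes. Arg1, which releases urea from arginine, read 8.69, 8.31 and 8.82 in liver and 4.12, 4.36 and 3.91 in cortex (22.2-fold), while Cps1, which fixes ammonia, read 6.39, 6.80 and 7.85 in liver and 2.07, 2.32 and 2.36 in cortex. Asl, of the same cycle, was at 0.13 ± 0.12 by its probe set with the highest mean and was not called. The mean of its probe sets gave 1.14 (adjusted p = 0.00366). By such means all 6 urea cycle genes were called higher. Amino acid breakdown had 14 of 20 genes higher (median 0.91), with Gstz1 12.5-fold and Cdo1, which oxidizes cysteine, 12.2-fold. Glucose, glycogen and fructose metabolism had 5 of 8 higher, and G6pc, the last enzyme of glucose release, read 8.21, 8.29 and 8.09 in liver and 6.74, 6.76 and 6.78 in cortex (2.70-fold). Bile acid and sterol handling had 7 of 12 higher (median 0.54), led after Akr1c6 by Slc10a1, the bile acid uptake transporter, at 6.02, 5.67 and 6.97 in liver and 2.04, 2.29 and 2.24 in cortex. In fatty acid oxidation, ketone bodies and peroxisomes 6 of 23 were higher, with Acaa2 at 3.84 ± 0.16.

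Genes for foreign compounds included the cytochromes P450, with 17 of 21 higher (median 1.64), beside 5.43% of all genes. Cyp2c39 read 8.02, 7.73 and 8.19 in liver and 3.07, 3.07 and 3.40 in cortex, Cyp3a11 read 7.17, 6.97 and 8.98 in liver and 3.07, 2.93 and 2.93 in cortex, and Cyp1a1, which foreign compounds induce, read 4.55, 4.38 and 4.53 in liver and 4.52, 4.35 and 4.41 in cortex and was not called. Conjugation and hydrolysis had 25 of 37 higher (median 0.76), with Mgst1 at 5.46 ± 0.24 and the alcohol dehydrogenase Adh1 16.5-fold. Hepatic growth factor and hormone signalling had 10 of 23 higher, with the growth hormone receptor Ghr at 5.76, 6.25 and 8.01 in liver and 4.37, 4.02 and 4.18 in cortex, a call that ended without cortex replicate 1, 2 or 3 (highest adjusted p = 0.0565). Transcription factors of hepatocytes had 6 of 18 higher and the smallest median of the 13 lists (0.24). Nr1i3, a nuclear receptor for foreign compounds, read 7.47, 7.37 and 7.79 in liver and 5.92, 6.06 and 5.84 in cortex (3.04-fold), Cebpa was 1.81-fold and Foxa1 was at 0.20 ± 0.09 and not called. Iron, heme and copper handling, with 7 of 22 higher, was led by Hpx, Cp and haptoglobin (Hp), which read 9.36, 9.18 and 10.64 in liver and 6.67, 6.43 and 6.82 in cortex.

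Among other cell types of the liver, calls were made for macrophages and sinusoidal endothelium, beside 14.4% of all 8251 genes called in either direction. In the macrophage and Kupffer cell list 3 of 19 were higher and 1 lower. Clec4f, a Kupffer cell lectin, read 3.36, 3.25 and 3.79 in liver and 2.43, 2.32 and 2.27 in cortex. Sinusoidal endothelium had 3 of 10 higher, led by Eng at 6.37, 5.75 and 5.67 in liver and 4.13, 4.05 and 4.09 in cortex (3.57-fold). Bile duct cells (0 of 6), stellate cells and fibroblasts (0 of 12) and lymphocytes (0 of 15) had no call. In the brain, endothelium (0 of 9) and microglia (0 of 8) had none either. The pancreatic protease Ctrl was called higher (1.49 ± 0.12), the only call among 8 pancreatic acinar genes.

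**Figure D3:**
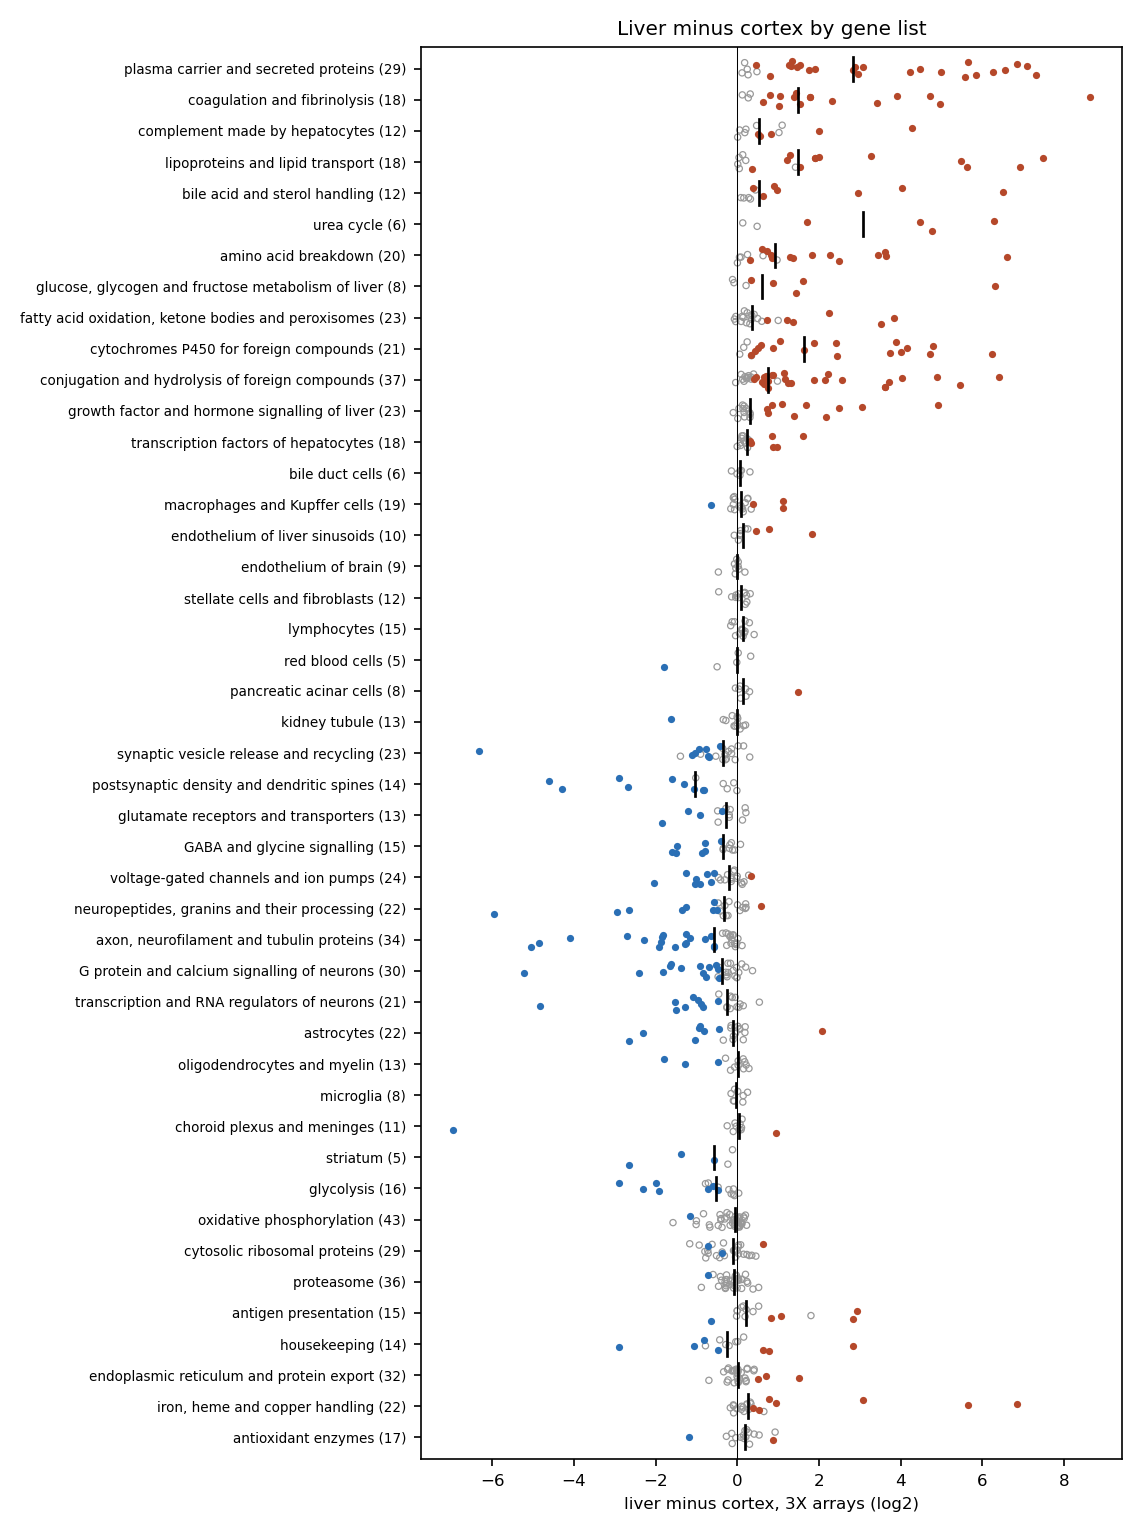
Liver minus cortex (horizontal axis, log2) of every measured gene in the 45 lists, with the number measured beside each name. Filled red marks are calls higher in liver, filled blue marks calls lower, open marks not called, and the bar is the list median, from 3.09 for the urea cycle to -1.04 for the postsynaptic density.

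In the other direction, the largest difference was that of Ptgds, which makes prostaglandin D2 and carries lipids in the brain. It read 3.01, 5.26 and 3.12 in liver and 10.68, 10.89 and 10.71 in cortex, -6.97 ± 0.53 (adjusted p = 8.55e-05). Liver replicate 2 stood apart from the other liver arrays here. Dnm1, the dynamin of synaptic vesicle recycling, read 4.06, 5.54 and 3.98 in liver and 10.82, 10.93 and 10.84 in cortex (-6.34 ± 0.37), and chromogranin B (Chgb), a granule protein, read 3.41, 4.14 and 3.50 in liver and 9.83, 9.33 and 9.74 in cortex (-5.95 ± 0.21). Replicate 2 was the highest liver array in 10 of the 15 genes with the lowest differences, and in 101 of the 368 probe sets lower by at least 1, against 96 for replicate 1 and 171 for replicate 3. All 30 genes were called without liver replicate 2 and also without liver replicate 3.

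The start regions of Dnm1 and Chgb, 2 of the 3 genes with the lowest differences, hold a match to the motifs searched, shown in capitals, and Ptgds holds none. These are GGGGCGGGG in Dnm1, also found in 11.6% of all RefSeq promoters, and TGACGTCA in Chgb, found in 1.88%. Matches overlap no other.
Dnm1 promoter, chr2:32353280-32353579, minus strand: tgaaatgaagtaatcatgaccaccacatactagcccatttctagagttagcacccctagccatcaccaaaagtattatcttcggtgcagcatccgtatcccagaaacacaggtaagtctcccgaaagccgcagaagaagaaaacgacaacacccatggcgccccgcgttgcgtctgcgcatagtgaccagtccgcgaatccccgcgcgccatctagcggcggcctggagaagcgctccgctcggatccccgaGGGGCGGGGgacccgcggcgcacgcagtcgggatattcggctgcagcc
Chgb promoter, chr2:132781392-132781691, plus strand: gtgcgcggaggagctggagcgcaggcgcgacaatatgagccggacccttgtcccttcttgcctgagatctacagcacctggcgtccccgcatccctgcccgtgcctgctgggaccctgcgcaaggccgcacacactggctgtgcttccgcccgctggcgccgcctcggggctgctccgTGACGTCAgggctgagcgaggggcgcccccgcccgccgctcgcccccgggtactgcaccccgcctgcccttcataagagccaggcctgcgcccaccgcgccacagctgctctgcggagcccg
For the genes called at least 1 lower in liver, 78.5% had a promoter in the table, under the 80% needed, so a comparison of their motifs and base composition is void. The length between the gene's ends could be given for all of them. Its median was 15.5 kb for the 228 genes called at least 1 higher in liver, 29.4 kb for the 302 called at least 1 lower, and 19.2 kb for all measured genes with a length.

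The rest of the 15 lowest genes were mainly of neuronal structure and signalling. Basp1, a growth-cone membrane protein, read 0.85, 1.13 and 0.51 in liver and 6.92, 6.56 and 6.70 in cortex, and the tubulin Tuba1a read 7.10, 8.19 and 7.82 in liver and 12.84, 12.35 and 13.06 in cortex. Gnao1, the main G protein subunit of neurons, read 2.90, 3.32 and 2.94 in liver and 8.43, 8.32 and 8.08 in cortex. Liver signals were dim in 8 of the 15, which were Basp1, Gnao1, Cpe, Mapt, Celf4, Dynll1, Kalrn and Gja1, and among the 15 highest genes cortex signals were dim in 9. Tau (Mapt) differed by -4.84 ± 0.19, the RNA-binding Celf4 by -4.83 ± 0.14, the calcineurin subunit Ppp3ca by -4.62 ± 0.21, Rtn1 by -5.02 ± 0.23 and Kalrn, which shapes dendritic spines, by -4.30 ± 0.16. The group also held Cpe, which processes neuropeptides (-5.01 ± 0.30), the dynein light chain Dynll1 (-4.51 ± 0.36), the astrocyte connexin Gja1 (-4.34 ± 0.26) and Cbx6 (-4.29 ± 0.17). Only 3 of the 12422 probe sets held values below 0 on the 6 arrays, those named here for Cpe, Dynll1 and Gja1. The liver means of Cpe and Dynll1 were -0.75 and -0.84. A brighter Cpe probe set gave -2.94 ± 0.26. Gja1 was dim in both tissues, with means of -1.69 in liver and 2.65 in cortex, and its difference was -3.09 after quantile normalization. Among bright genes outside the 15, the filament gene Ina read 3.96, 4.57 and 4.09 in liver and 8.20, 8.19 and 8.48 in cortex (17.0-fold) and App, the amyloid precursor, read 7.74, 7.73 and 8.02 in liver and 11.38, 10.33 and 10.78 in cortex. Mark2 (-3.84 ± 0.46), Cadm1 (-3.47 ± 0.26), Spock2 (-3.43 ± 0.16), Cst3 (-3.34 ± 0.35), Norad (-3.10 ± 0.24) and Ptk2b (-2.90 ± 0.17) made up that group.

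Neuronal functions were described with 9 lists of 284 genes, of which 196 were measured. Of these, 2 were higher and 84 lower in liver, and 110 were not called (median -0.36). On the single 1X arrays the median difference of the 196 genes was -1.0. The 2 exceptions were the potassium channel Kcnj6 (0.34) and the somatostatin receptor Sstr2 (0.57). Neither was called when the probe sets of a gene were averaged. Among all genes 8.94% were called lower in liver. The mean signal of the 196 genes was between 4.34 and 4.48 on the liver arrays and between 5.14 and 5.26 on the cortex arrays.

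The postsynaptic list had the lowest median, with 9 of 14 lower (-1.04), beside 8.94% of all genes. Ppp3r1, the other calcineurin subunit, read 4.85, 4.604 and 4.89 in liver and 7.78, 7.30 and 7.30 in cortex (6.40-fold), whereas the scaffold Dlg4 read 8.28, 8.36 and 7.998 in liver and 8.24, 8.48 and 8.17 in cortex and was not called. Axon, neurofilament and tubulin genes had 18 of 34 lower (median -0.57), including Gap43 of growing axons at -2.70 ± 0.23. Among signalling genes, 13 of 30 of the G protein and calcium list were lower, with Gng3 5.29-fold. Synaptic vesicle release had 8 of 23 lower, and apart from Dnm1 the called members lay between -0.42 and -1.11. Vamp2, a vesicle fusion protein, read 4.98, 4.66 and 4.76 in liver and 5.82, 5.74 and 6.16 in cortex (2.15-fold). GABA and glycine signalling had 7 of 15 lower, glutamate receptors and transporters 4 of 13, and voltage-gated channels and ion pumps 8 of 24. The glutamate receptor subunit Gria2 read 5.66, 5.56 and 5.56 in liver and 7.78, 6.98 and 7.58 in cortex, and the receptor Gabbr1 was 3.03-fold. Neuropeptides and granins had 8 of 22 lower, among them proenkephalin (Penk) at 3.20, 2.86 and 2.97 in liver and 6.05, 5.12 and 5.79 in cortex. Neuronal transcription and RNA regulators had 9 of 21 lower, with Sox11 2.83-fold.

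Glia and shared functions split. Astrocyte genes had 7 of 22 lower and 1 higher, beside 8.94% lower and 5.43% higher among all genes. The exception, Apoe, the lipid carrier that hepatocytes and astrocytes both make, read 9.79, 9.35 and 9.79 in liver and 7.597, 7.58 and 7.53 in cortex (4.21-fold). Myelin had 3 of 13 lower, with Mbp at 6.74, 6.73 and 7.07 in liver and 8.29, 8.05 and 8.02 in cortex. Glycolysis had 7 of 16 lower and 0 higher (median -0.53), led by Aldoa at 5.06, 5.29 and 5.14 in liver and 8.07, 8.01 and 8.09 in cortex (7.42-fold). The striatal list had 3 of 5 lower, and the choroid plexus and meninges list 1 higher and 1 lower of 11, near the shares of all genes. Of large shared complexes, oxidative phosphorylation had 1 of 43 genes called and the proteasome 1 of 36, beside 14.4% of all genes. Cytosolic ribosomal proteins had 3 of 29, near that share, of which Rplp0 was higher and Rps28 and Rpl10a lower. At 1X the differences of Rps28 and Rpl10a had the opposite sign (0.12 and 0.77), and that of Rplp0 the same sign (0.89). The call of Rpl10a ended in 5 of the 6 fits that leave out 1 array.

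Pairs of genes were listed with a liver and a brain form, most of them from the same family and some only alike in role, such as the transporters Slc10a1 and Slc1a2 or the ammonia-fixing Cps1 and Glul. Of 30 pairs, 18 had both forms measured. In 4 of the 18 the liver form was called higher and the brain form lower. These were Fabp1 and Fabp7, the inhibitors Serpinc1 and Serpini1, the glutathione transferases Gsta3 and Gstm5, and the unrelated transporters Slc10a1 and Slc1a2. Slc1a2, the main glutamate transporter of astrocytes, differed by -0.91 ± 0.13 at 3X but by 0.07 at 1X. Fabp7, the fatty acid-binding protein of glia, read 7.44, 7.10 and 6.94 in liver and 7.92, 8.03 and 8.31 in cortex (-0.93 ± 0.16), far smaller than the difference of Fabp1. Serpini1, neuroserpin, read 1.54, 1.26 and 1.16 in liver and 4.04, 3.61 and 4.16 in cortex. Gstm5 read 7.93, 8.07 and 8.80 in liver and 11.02, 11.14 and 11.33 in cortex (7.45-fold). Across the 18 pairs the liver form was higher in 14 and not called in 4, while the brain form was lower in 6, not called in 11 and higher in 1 (Apoe). At 1X the 11 uncalled brain forms differed by between -3.25 (Mt3) and 2.43 (Adh5), with Ldhb at -3.11, Sult4a1 at -2.24 and Igf2 at 0.04. Neither form was called for connexins Gjb1 and Gja1 or lactate dehydrogenases Ldha and Ldhb. Gjb1 read 2.77, 2.96 and 3.24 in liver and 2.71, 2.77 and 2.64 in cortex at 3X, but 7.18 in liver and 2.93 in cortex at 1X. For Gja1 the probe set with the highest mean was not the one with the large difference above.

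Liver also differed from cerebellum, in 1716 probe sets (13.8%), and cortex from cerebellum in 262 (2.11%). The 2 liver comparisons share the liver arrays. Of the probe sets called against cortex, 430 (3.46% of all) were not called against cerebellum, 144 higher and 286 lower in liver. Missing the threshold against cerebellum does not show equal signals, and the direct test between the regions was passed by 47 (0.378%), 9 higher and 38 lower. No probe set was called higher against one region and lower against the other. The 430 became 120, 273 and 137 without cortex replicates 1, 2 and 3, and 672, 745 and 691 without cerebellum replicates 1, 2 and 3. The 47 became 21 without cortex replicate 1 and 30 without cortex replicate 3. Cortex against cerebellum gave 150 calls without cortex replicate 1, and 153 and 164 without cerebellum replicates 2 and 3. Liver against cerebellum gave 1057 without cerebellum replicate 2 and 1138 without cerebellum replicate 3.

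Genes lower in liver than in cortex, but not called against cerebellum, were led by Ptk2b, a tyrosine kinase of calcium signalling. It read 5.54, 5.93 and 6.04 in liver, 8.62, 8.56 and 9.03 in cortex and 5.52, 5.78 and 5.67 in cerebellum. The cortex arrays stood above those of both other tissues. Neurogranin (Nrgn), a calmodulin-binding protein of dendritic spines, read 3.21, 3.26 and 3.12 in liver, 4.90, 4.68 and 4.84 in cortex and 3.34, 2.93 and 2.83 in cerebellum. Fezf2, a transcription factor of deep-layer cortical neurons, read 1.87, 2.05 and 1.87 in liver, 3.16, 3.69 and 3.48 in cortex and 2.07, 1.81 and 1.95 in cerebellum. Its mean was dim in all 3 tissues (3.44 in cortex). Cck, a neuropeptide, read 4.36, 4.56 and 4.26 in liver, 5.73, 5.52 and 5.70 in cortex and 4.43, 4.61 and 4.49 in cerebellum. On the single 1X arrays Cck read 3.41 in liver, 8.545 in cortex and 5.01 in cerebellum. The cell adhesion gene Icam5, known from telencephalic neurons, differed by -1.06 ± 0.16, the activity-dependent factor Egr1 by -1.10 ± 0.12 and the transcription factor Mef2c by -1.53 ± 0.16. The 3 further probe sets of Mef2c and the 1 of Egr1 were not called between liver and cortex. Septin11 (-1.49 ± 0.15), Arpc2 of the actin branching complex (-1.41 ± 0.21) and a second probe set of Cadm1 (-1.37 ± 0.22) completed the 10.

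Those higher in liver than in cortex, 9 genes, had cerebellum means above those of cortex, as the choice of genes called between the regions but not against cerebellum requires. Hsd3b2, a steroid dehydrogenase, read 4.15, 4.86 and 5.40 in liver, 1.28, 1.41 and 1.15 in cortex and 3.62, 3.85 and 3.99 in cerebellum. Smarcd2, of a chromatin-remodelling complex, read 8.08, 7.58 and 8.67 in liver, 5.05, 5.27 and 5.44 in cortex and 7.03, 6.92 and 7.55 in cerebellum. In both, the cortex arrays were the lowest of the 3 tissues. Pdzk1 (1.54 ± 0.30), the complement inhibitor Cd59a (1.27 ± 0.28), Npc1 of lysosomal cholesterol export (1.06 ± 0.19), Dpm3 (0.74 ± 0.17), Rplp0 (0.63 ± 0.10), Klk1b1 (0.53 ± 0.11) and the metallothionein Mt1 (0.39 ± 0.10) were the others. Of the 3 further probe sets of Smarcd2, 1 was called between liver and cortex, and the 1 further probe set of Pdzk1 was not. The call against cortex ended for Mt1 whichever of the 6 arrays was left out (adjusted p between 0.0576 and 0.159). It ended for Klk1b1 without cortex replicate 1, cortex replicate 3 or liver replicate 2 (highest 0.0606), for Pdzk1 without cortex replicate 1 or 3 (highest 0.0536), and for Cd59a and Dpm3 without cortex replicate 1 or 2 (highest 0.0844 and 0.0948). Their adjusted p-values against cerebellum ran between 0.0559 and 0.950 over all 19 genes of both directions.

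Some kidney tubule genes were higher on the cerebellum arrays. Of the 13 measured, 5 were lower in cortex than in cerebellum, while 1.36% of all genes were called lower in cortex. In liver 7 of the 13 were lower than in cerebellum, while 1098 of all 12422 probe sets were called lower in liver. The latter is a count of probe sets and not of genes. Among the 7 was Calb1 (liver minus cerebellum -2.12), which neurons also make. Napsa, a protease of kidney and lung, read 2.14, 1.96 and 2.19 in liver, 2.37, 2.61 and 2.35 in cortex and 5.68, 5.85 and 6.10 in cerebellum. The androgen-regulated kidney gene Kap read 4.67 in liver, 4.92 in cortex and 8.66 in cerebellum at 1X, and Miox, of renal inositol breakdown, read 4.38 in liver, 4.67 in cortex and 8.51 in cerebellum at 1X. Umod, Slc34a1, Kap and Miox differed by -0.88, -0.95, -1.04 and -0.86 (cortex minus cerebellum) at 3X, and the mean signal of the 13 was between 3.37 and 3.47 on liver arrays, 3.57 and 3.59 on cortex arrays and 4.20 and 4.31 on cerebellum arrays at 3X. Fbp1 and Slc27a2, which liver and kidney both make, were also lower in cortex than in cerebellum (-2.59 and -1.17), as was Kng1 (-1.46). The part of this in the 9 genes above was not tested.

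**Figure D4:**
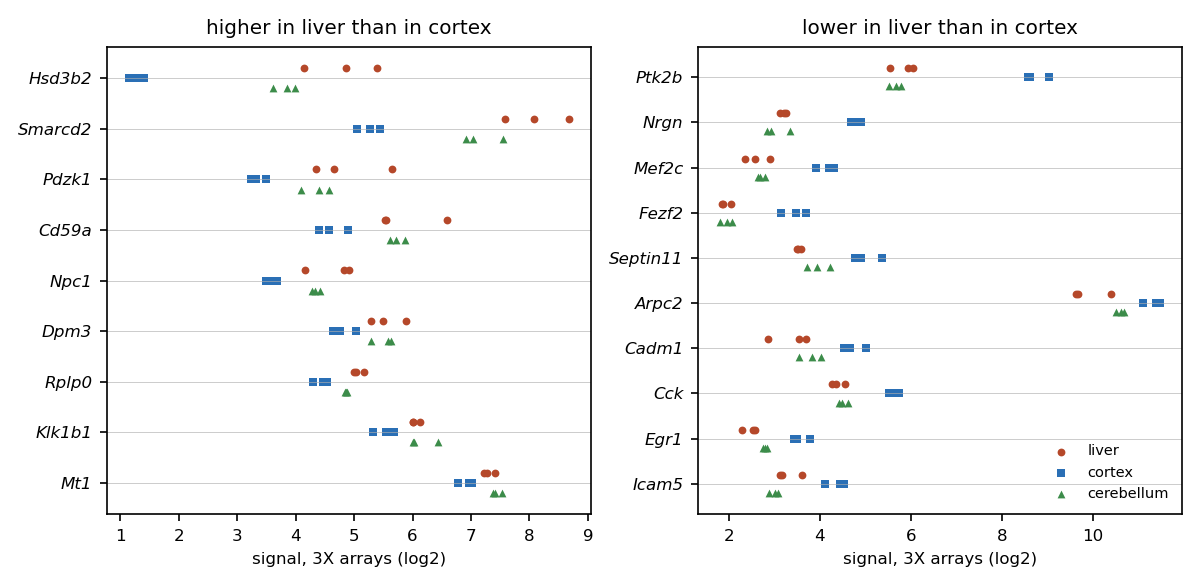
Signals on the single 3X arrays (log2) of liver, cortex and cerebellum, from top to bottom in each row, for the 9 genes higher (left) and 10 genes lower (right) in liver than in cortex that were called between the regions but not against cerebellum. In every row the cortex arrays (squares) lie on one side of the liver arrays (circles).

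The 1X arrays gave the same sign in 1608 of the 1675 calls (96.0%), in 648 of the 652 with a difference of at least 1 (99.4%) and in 65.4% of all probe sets. The difference itself changed with the procedure in 1037 probe sets (8.35%), when the lone 1X array of each tissue is assumed to vary like the 3X replicates. Among the 407 of them that were also called between liver and cortex at 3X, 377 differed less at 3X than at 1X, 17 differed more and 13 had the opposite sign. Without liver replicate 3 the 1037 became 1691. The amount of input RNA, the kit and the number of amplifications differed between the procedures at the same time and cannot be told apart.

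The 6 genes with the largest changes, chosen by that test, are described by their signals, and the 1X side has no spread of its own. Snap25, a vesicle fusion protein, led them. It read 6.15, 7.11 and 5.26 in liver and 7.86, 7.43 and 7.41 in cortex at 3X, but 2.99 in liver and 11.24 in cortex at 1X. Hepcidin (Hamp), the iron hormone of hepatocytes, read 2.60, 2.88 and 2.55 in liver and 2.28, 2.58 and 2.44 in cortex at 3X, but 8.92 in liver and 2.30 in cortex at 1X. The tissue difference was called in neither at 3X. Cx3cl1, a neuronal chemokine, read 4.35, 4.47 and 3.96 in liver and 4.46, 4.40 and 4.22 in cortex at 3X, but 3.70 in liver and 9.24 in cortex at 1X. A second probe set of Plg read 3.35, 3.28 and 4.21 in liver and 2.27, 2.64 and 2.50 in cortex at 3X, but 8.27 in liver and 1.91 in cortex at 1X. It gave a difference of 1.14 ± 0.24 at 3X, beside 8.64 for the probe set above, and the call of this second probe set ended without cortex replicate 1 or 3, as did that of Apoa5. Apoa5 (0.98 ± 0.21 at 3X and 6.01 at 1X) and a second probe set of Cyp2d10 (1.44 ± 0.21 at 3X and 6.96 at 1X) followed.

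**Figure D5:**
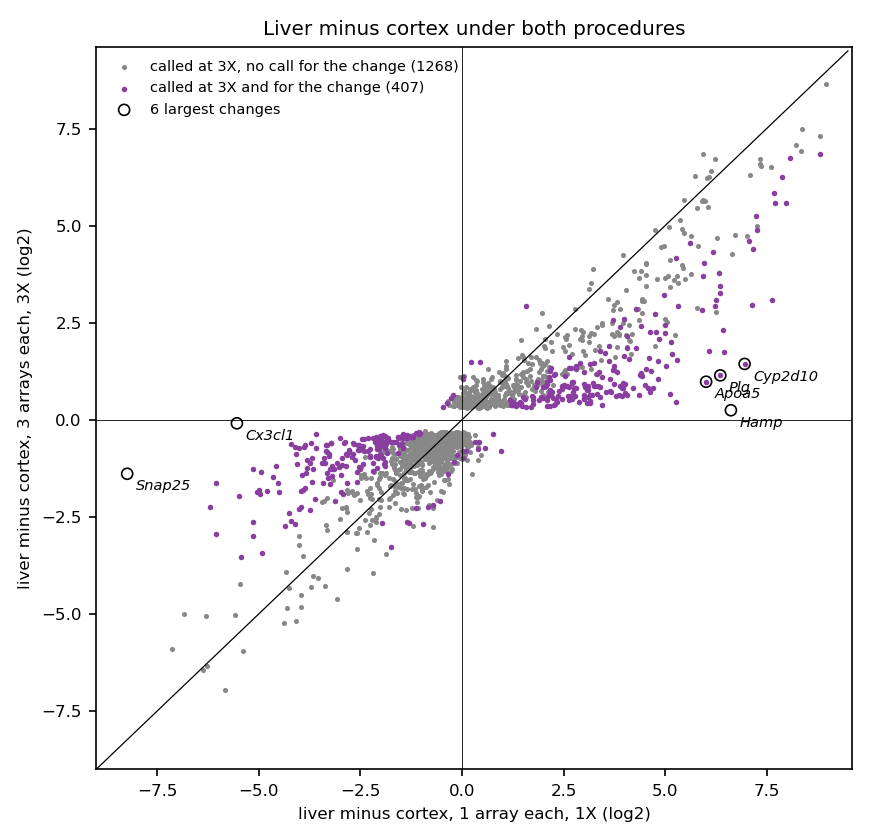
Liver minus cortex on the 3X arrays (vertical axis, log2, mean of 3 arrays per tissue) against the same difference on the 1X arrays (horizontal axis, log2, 1 array per tissue) for the 1675 called probe sets, with the diagonal marking equality. The 407 purple marks also changed with the procedure, and the open circles are the 6 largest such changes, all with a larger difference at 1X, of which Snap25, Hamp and Cx3cl1 were not called at 3X.

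Probe sets of a gene did not always give the same result. Of the 46 genes named for a large difference, 25 had further probe sets, and in 7 of the 25 none of these was called. The 7 were Apoa2, Igf1, Chgb, Gja1, Kalrn, Cbx6 and Mark2, with the further probe sets between -0.14 and 0.08. In the other 18 at least 1 further probe set was called, but not always with a difference of like size. It was 6.26 for Serpina1c beside 6.84, but 0.59 for Fabp1 beside 7.48 and 0.64 for Bhmt beside 6.60. Among genes lower in liver, further probe sets gave -5.18 and -3.55 for Ptgds beside -6.97 and -2.91 for Ina beside -4.08. Others gave -2.99 for Dnm1 beside -6.34, -1.16 for Basp1 beside -5.89, and -0.89 and -1.15 for Mapt beside -4.84. Of the 4 further probe sets of Gnao1 only 1 was called (-1.38, beside -5.23). Of genes with several probe sets and at least 1 call, 525 in number, all probe sets were called in the same direction in 64. By symbol, 510 genes were called higher and 869 lower, with 1 gene in both sets. That gene, named after its values were seen, was the ubiquitin ligase Wwp2, with probe sets at 0.59 and -0.53.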

How the data were processed

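RNA was isolated with TRIzol and column-purified, and the 3X samples were amplified with the RiboAmp HS kit, per the labels. The authors deposited log2 signals per probe set, summarised with RMA, as the submitters' processing notes state. Not given in sources used here are its version, the base of the logarithm and the arrays of each run. The highest value, 14.46, led to base 2. Of 12488 probe sets, 66 controls were left out. A symbol was taken from 10833 probe sets; 396 carried several and 1193 none, and 10817 gene identifiers matched a RefSeq table (GRCm38.p6) with 0 symbols changed. Precision is limited by the number of arrays, by the single mouse behind them, which leaves only technical spread, and by dim signals.

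Liver and cortex were compared with limma 3.58.1 in R 4.3.3 (lmFit, eBayes, two-sided) on their own 6 arrays, since the liver arrays vary more and a spread shared with cerebellum would understate it, with Benjamini-Hochberg adjustment over 12422 probe sets and a call at an adjusted p under 0.05. Other pairs were fitted alike. The change with procedure was the 3X minus the 1X difference over 8 arrays. Named genes were the 15 highest and 15 lowest, 8 and 8 more with both tissues bright, up to 10 each way called between the regions but not against cerebellum, the 6 largest changes with procedure, the 6 most variable in liver, up to 4 called members per list, and all pairs. Members and lists were chosen with earlier results of these data known; some further list genes were named after their values were seen. In simulated arrays, independent values with a spread shared by both tissues were drawn, and 50 probe sets were changed at each size. There 34% of changes of 0.5 (log2) were recovered, 82% of 1, 98% of 2 and 100% of 4, with 7 false calls of 164. The real arrays had 1675 calls, unequal spread and a liver replicate that stood apart, so these shares need not hold for them. Alternatives were other scalings, filters, fits, a replicate block and leaving out each array.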

Additional observations from a re-analysis of the deposited data

Results flagged for a closer look

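The 19 genes named for a liver difference called against cortex but not against cerebellum were chosen by the test of cortex minus cerebellum, so its values are descriptions. Of the 13 kidney tubule genes, 5 were also lower in cortex than in cerebellum, as given above. In the 9 genes higher in liver than in cortex, cortex minus cerebellum was -2.54 for Hsd3b2, -1.91 for Smarcd2, -1.0 for Pdzk1, -1.12 for Cd59a, -0.77 for Npc1, -0.69 for Dpm3, -0.64 for Klk1b1, -0.52 for Mt1 and -0.42 for Rplp0. In the 10 genes lower in liver it was 3.08 for Ptk2b, 1.77 for Nrgn, 1.498 for Fezf2, 1.43 for Mef2c, 1.37 for Icam5, 1.14 for Cck, 1.06 for Septin11, 0.94 for Cadm1, 0.77 for Egr1 and 0.71 for Arpc2.

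The 6 genes with the largest change between procedures were chosen by the test of the 3X minus the 1X difference, which assumes that the lone 1X array of each tissue varies like the 3X replicates. The change was 6.85 for Snap25 and 5.45 for Cx3cl1, and -6.38 for Hamp, -5.52 for Cyp2d10, -5.22 for Plg and -5.03 for Apoa5, the Plg and Cyp2d10 values being those of second probe sets.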

How the results depend on the processing

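Quantile normalization and median centring left all 239 named tissue differences with their direction and side of the threshold. Leaving out cortex replicate 1, 2 or 3 made 24, 12 and 21 of the 239 miss it, and liver replicate 1, 2 or 3 made 8, 7 and 1 miss it. In all 25 of the 176 named calls ended without some array, and 151 did not. A mean value per gene reversed Pklr (0.41, against -0.08) and the highest-mean probe set of Gja1 (-2.16, against 0.01); the averaging of unlike probe sets is part of that alternative. List counts were compared under that alternative in 90 cases, of which 10 moved by over 1.5 times or to or from 0, such as 10 fatty acid oxidation genes higher in place of 6 and 5 myelin genes lower in place of 3. It also gave 423 of 8251 genes with a call and a difference of at least 1, beside 652 of 12422 probe sets in the main fit. These 2 counts have different units. Probe sets above the median level gave 1056 liver and cortex calls, since fewer were tested. In the fit of all 9 3X arrays, cortex against cerebellum gave 132 calls in place of 262 and the region-dependent set 24 in place of 47, while liver against cortex gave 2082, of which 1652 were among the 1675. The cause was not tested. Leaving out each array gave 1071 to 2155 calls for liver against cortex, 582 to 729 for those of at least 1, 1057 to 2391 for liver against cerebellum, 150 to 239 for cortex against cerebellum, 120 to 745 for calls against cortex only, 21 to 50 for those also called between the regions, and 744 to 1691 for the change with procedure.

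The replicate block gave 1910 calls for liver against cortex, 1910 for liver against cerebellum, 298 for cortex against cerebellum, 463 against cortex only and 50 of those between the regions, and 687 of at least 1. It made 5 of the 239 named differences pass the threshold and 1 miss it. The deviations of liver and cortex arrays of the same number correlated at 0.022, 0.243 and 0.357. Those of arrays with different numbers correlated between -0.366 and 0.261, the highest being liver replicate 1 with cortex replicate 2. Whether arrays of the same number shared a step of processing was not tested. Array signals have no depth, and dim signals limit what can be read: 440 calls were dim in both tissues.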

Other observations

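Genes of immune recognition and of common reference use also differed between liver and cortex. Among all 8251 genes 5.43% were called higher and 8.94% lower, or 14.4% in either direction. In antigen presentation 4 of 15 genes were higher and 1 lower in liver. B2m, the light chain of class I molecules, read 7.55, 7.27 and 8.40 in liver and 4.98, 4.64 and 5.13 in cortex (2.82 ± 0.27, 7.07-fold), and H2-Q10, a class I gene, read 5.49, 5.35 and 6.65 in liver and 3.00, 2.93 and 2.77 in cortex. Of 14 genes often used as references, 3 were higher and 4 lower, among them Actb at 7.85, 7.35 and 7.89 in liver and 8.52, 8.35 and 8.63 in cortex (-0.81 ± 0.16), while the 1X difference of Actb was 0.96 and the 3X call ended without cortex replicate 1 or 3 (highest adjusted p = 0.0587). Protein export from the endoplasmic reticulum had 3 of 32 higher, with the channel subunit Sec61a1 2.85-fold, and antioxidant enzymes 1 higher and 1 lower of 17. In neither list did the share called exceed the 14.4% of all genes. Car2, the lone call among 5 red cell genes, was lower in liver (-1.80 ± 0.18) and is also a myelin gene.

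The 6 genes with the largest spread among the liver arrays were all highest in liver replicate 3. Uox, the urate oxidase of peroxisomes, read 5.44, 5.91 and 8.37 in liver and 2.94, 3.12 and 3.07 in cortex. Ces1d read 6.12, 6.46 and 8.69 in liver and 3.58, 3.33 and 3.22 in cortex, and Mug-ps1 read 7.20, 8.43 and 10.17 in liver and 5.91, 6.01 and 6.07 in cortex. Errfi1 read 3.42, 3.52 and 6.14 in liver and 2.93, 2.88 and 3.11 in cortex. Rps10 read 5.31, 6.71 and 8.57 in liver and 7.86, 7.63 and 8.61 in cortex, and Romo1 read 6.39, 7.40 and 9.23 in liver and 8.57, 8.14 and 8.95 in cortex. Errfi1, Rps10 and Romo1 were not called, and the call of Mug-ps1 ended without cortex replicate 1, 2 or 3 or liver replicate 2 (highest adjusted p = 0.107).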
